A study of Mus musculus with 21 samples.

Results

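The Toll-like receptor (TLR) genes of B cells and the genes that control their products were followed across 3 lymphoid tissues and 3 kinds of B cells. The set holds 10 named genes of the 23337 in the count table: the surface receptor genes Tlr1, Tlr2, Tlr4, Tlr6 and Cd180, the endosomal receptor genes Tlr3, Tlr7 and Tlr9, the chaperone gene Unc93b1 and the inhibitor gene Irak3. The genes were chosen by name, with no threshold on a measured value but with earlier results of these data known. All 10 passed the filter on low counts. The study is a bulk RNA sequencing series on self-reactive B cells in the gut. B cells were sorted from 3 tissues of C57BL/6 mice aged 8 to 12 weeks: the spleen, the lymph nodes of the mesentery (mLN) and the Peyer's patches (PP), which are the lymphoid tissue of the small intestinal wall. The labels call the cells HEL neg, HEL pos, or BCL2 HEL pos; they expand neither HEL nor BCL2 and do not say in which cells or from which promoter BCL2 is expressed. They also give no treatment that differs between groups, and mice of a group shared a cage. HEL neg cells have 1 pooled library in each tissue. HEL pos cells have 3 libraries in each tissue, numbered 392 and 399 and named Pool. BCL2 HEL pos cells have 3 libraries in each tissue, numbered 922, 926 and 950. Nothing in the labels says that each number is a separate mouse, so p-values measure only how these libraries scatter, part of which may be technical.

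TLRs are membrane proteins that recognise conserved molecules of microbes. TLR2, paired with TLR1 or TLR6, recognises bacterial lipopeptides at the cell surface and TLR4 recognises lipopolysaccharide, while CD180 (RP105) is a surface relative of TLR4 that is prominent on B cells. TLR3 recognises double-stranded RNA, TLR7 single-stranded RNA and TLR9 unmethylated CpG DNA, all in endosomes, which they reach with the help of UNC93B1. IRAK3, also called IRAK-M, is a member of the IRAK kinase family that restrains signalling downstream of these receptors. In B cells TLR signals can add to those of the antigen receptor.

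In the mouse build mm10 Tlr1 lies at chr5:64924679-64933563 and Tlr6 at chr5:64952031-64960097, both on the minus strand, with 18467 bases between them. They are close paralogs: 15.4% of the distinct 50-base windows of Tlr1 transcripts, and 12.3% of those of Tlr6, also occur in transcripts of other genes, and 454 windows are shared between the pair. Reads of this length from those windows cannot be assigned by sequence, so both levels carry that uncertainty. Tlr2 lies at chr3:83836272-83841767, Tlr4 at chr4:66827584-66930284, Tlr7 at chrX:167304929-167330558, Tlr9 at chr9:106222598-106226883 and Unc93b1 at chr19:3935186-3949340, and no other annotated gene has an exon on theirs. Tlr3 (chr8:45395665-45411080), Cd180 (chr13:102693558-102739629) and Irak3 (chr10:120141648-120202130) each share exon bases with a gene on the opposite strand: Gm45542 for Tlr3, Mast4 for Cd180, and Gm47009 and Tmbim4 for Irak3. The kit is uncertain, since the labels name both TruSeq and Nextera XT, and the counts are not stated to use strand, so such reads cannot be told apart from the partner's.

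The promoters of Tlr1, Tlr3 and Irak3 are printed because these genes were lower together in mLN than in spleen HEL pos cells. Each is the 250 bases before a RefSeq start (build GRCm38.p6, the assembly of mm10, minus strand for all of them). The windows are chr5:64933559-64933808 for Tlr1, chr8:45410381-45410630 for Tlr3 and chr10:120201598-120201847 for Irak3, and the first entry was taken where a gene has 2. The Tlr3 and Irak3 windows lie wholly inside the gene spans given above, so the bases before the starts of those spans are not covered. The table holds entries for 7 of the 10 genes and has none for Tlr4, Tlr7 and Unc93b1. Capitals mark matches, on either strand, to an IRF core (AANNGAAA), a longer ETS site (GAGGAA) or an AP-1 site (TGANTCA). The shorter ETS core GGAA was not searched for and is not marked where it occurs outside GAGGAA.
Tlr1: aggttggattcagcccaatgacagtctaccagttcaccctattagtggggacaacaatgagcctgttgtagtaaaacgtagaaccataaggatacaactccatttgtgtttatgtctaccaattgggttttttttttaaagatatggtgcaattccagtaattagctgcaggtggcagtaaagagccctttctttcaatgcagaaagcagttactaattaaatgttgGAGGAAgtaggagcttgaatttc
Tlr3: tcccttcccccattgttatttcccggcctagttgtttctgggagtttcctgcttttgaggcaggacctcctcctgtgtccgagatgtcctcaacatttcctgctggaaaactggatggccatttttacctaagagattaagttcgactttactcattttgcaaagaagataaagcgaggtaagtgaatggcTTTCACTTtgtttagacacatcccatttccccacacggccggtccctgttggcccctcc
Irak3: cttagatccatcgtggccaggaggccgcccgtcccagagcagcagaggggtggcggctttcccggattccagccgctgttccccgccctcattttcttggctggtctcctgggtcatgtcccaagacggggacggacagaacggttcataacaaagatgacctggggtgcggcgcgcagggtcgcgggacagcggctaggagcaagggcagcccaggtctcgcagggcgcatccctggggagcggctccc
Tlr1 holds 1 GAGGAA site, which begins 23 bases before the start. Tlr3 holds 1 IRF core, 59 bases before the start, and Irak3 holds no match to any of these letters. Of the other 4 genes with an entry, Tlr2 has 2 IRF cores, Tlr6 has 4 and Cd180 has 1, while Tlr9 has 1 GAGGAA site and 1 AP-1 site. Some of the Tlr6 matches overlap. Over the 250-base windows of all 32851 RefSeq promoters the IRF core occurs in 21.3%, the GAGGAA site in 23.3% and the AP-1 site in 6.75%. A match describes letters and no binding was measured.

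Library totals ran from 5475131 to 11340876 counts, so that 3 counts corresponded to 0.263 to 0.518 CPM (the usual depth-scaled count, here on library totals scaled by the TMM method of edgeR). No marker of the 8 fixed for B cells was at 0 throughout a group, and their summed level ran from 9633 to 22324 CPM, lowest in mLN HEL pos cells. The PP HEL pos libraries 399 and Pool stood apart in transcripts of 1457 olfactory and vomeronasal receptor genes, at 719 and 943 CPM of the plain total against 50.4 to 535 in the other libraries. The sum of 11 gut epithelial markers was 242 to 1104 CPM in PP HEL pos libraries, 1209 in the PP HEL neg pool, 15.1 to 149 in PP BCL2 HEL pos libraries and at most 35.9 elsewhere. The sum of 14 myeloid and granulocyte markers was 88.2 to 229 CPM in spleen HEL pos libraries and 109 in the spleen HEL neg pool, against 8.90 to 36.2 in all others. Y-linked transcripts were at or under 0.869 CPM in libraries 392 and 399 of every tissue and at 92.3 to 168 CPM in all other libraries. The part of these differences in the results was not tested, unless a value is given below. In bulk libraries fewer cells of a type and less RNA per cell cannot be told apart.

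Unc93b1 RNA exceeded that of every receptor gene in all groups. Per kilobase of exon, its median over the 21 libraries was 460 CPM, against 36.6 for Tlr1 and 36.5 for Tlr9, 17.4 for Tlr7 and 17.2 for Cd180. Irak3 followed at 12.8 CPM per kilobase, then Tlr2 at 7.02, Tlr4 at 4.07, Tlr6 at 2.49 and Tlr3 at 0.612. Unc93b1 also varied least, 1.74-fold between its lowest (1017 CPM) and highest library (1771 CPM). Tlr1 varied 2.40-fold, Tlr9 3.22-fold, Tlr2 3.53-fold, Tlr4 3.68-fold, Irak3 4.82-fold, Cd180 5.65-fold and Tlr7 8.69-fold. Tlr6 (0.345 to 15.6 CPM) and Tlr3 (0.173 to 32.0 CPM) spanned the widest ranges, and their lowest values rested on 2 counts and 1 count in PP HEL pos library 399.

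**Figure D1:**
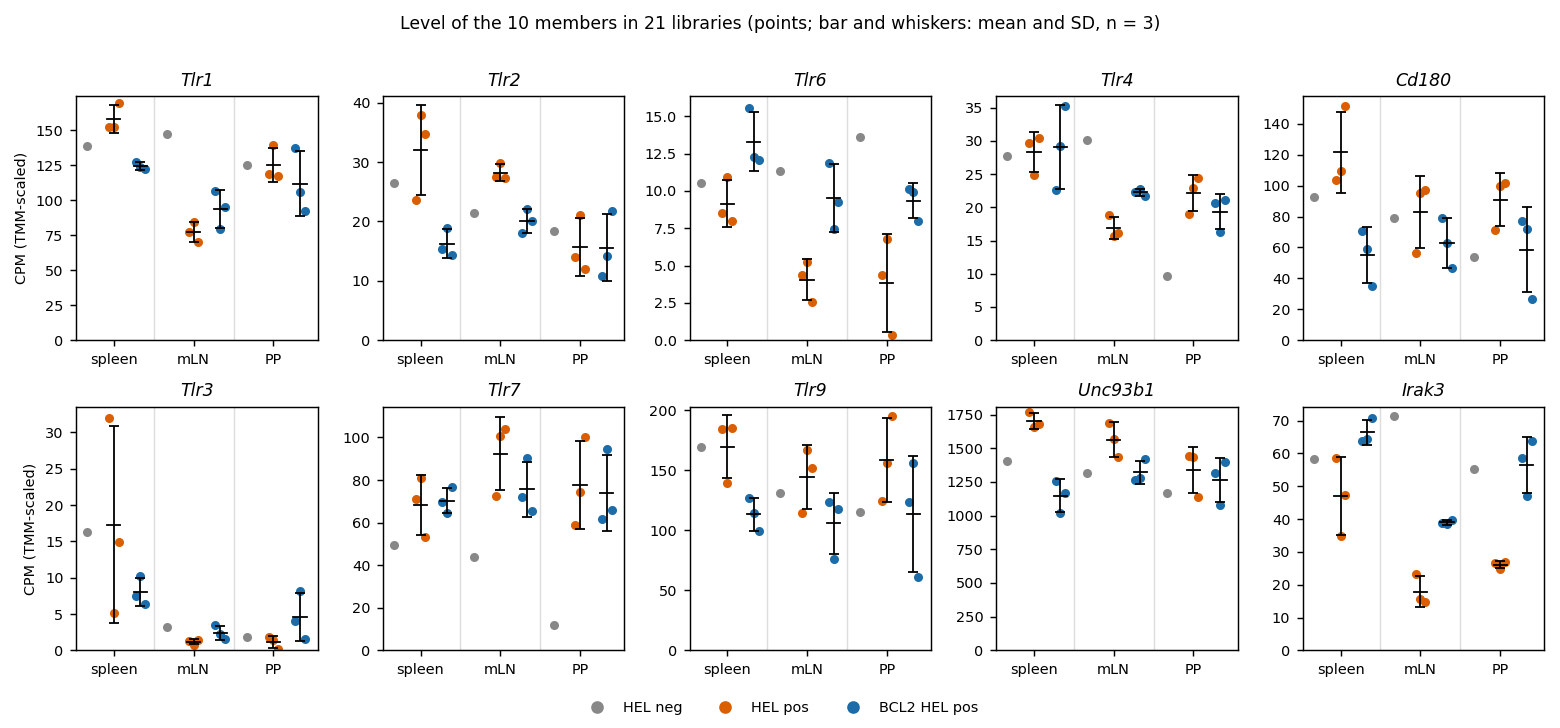
TMM-scaled CPM (linear axis from 0) of the 10 genes in 21 libraries by tissue, with HEL neg in grey, HEL pos in orange and BCL2 HEL pos in blue; black marks give the mean and SD of 3 libraries. Irak3 and Tlr6 in mLN and PP were lower in every HEL pos library than in every BCL2 HEL pos library and the HEL neg pool, and Tlr3 was highest in the spleen HEL pos pool at 32.0 CPM.

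In HEL pos cells, 4 of the 10 genes fell in mLN against spleen and none rose: Tlr1, Tlr3, Tlr4 and Irak3. Over all genes tested in this comparison, 24.5% of 11419 were called in either direction, 1476 higher and 1318 lower. The median log2 fold change of the 10 genes was -0.64, against -0.01 over all genes. In PP against spleen, 3 of the 10 fell and none rose: Tlr2, Tlr3 and Irak3, where 15.4% of all genes were called. In PP against mLN 1 gene rose (Tlr1) and 1 fell (Tlr2), beside 8.86% of all genes. Of the 8 B cell markers 7 fell in mLN (median -1.13) and 7 in PP (median -0.63) against spleen, and of the 11 T and NK cell markers tested 4 rose and 1 fell in mLN. The part of these marker shifts in the calls was not tested. The 3 comparisons share libraries and are not independent of each other.

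Among the surface receptors, Tlr1 was at 152, 169 and 153 CPM in the spleen HEL pos libraries 392, 399 and Pool, at 84.8, 70.4 and 77.3 in mLN, and at 140, 118 and 119 in PP. All spleen values lay above all PP values, and these above all mLN values. In mLN it was 2.02-fold lower than in spleen (log2 fold change -1.02 ± 0.14 SE, adjusted p = 2.20e-05). It was 1.60-fold higher in PP than in mLN (0.68 ± 0.14, adjusted p = 0.00585), and its difference between PP and spleen was not called (-0.33 ± 0.14, adjusted p = 0.123).

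Tlr2, whose product pairs with those of Tlr1 and Tlr6, did not follow Tlr1. It was at 37.9, 34.7 and 23.6 CPM in spleen (392, 399 and Pool), at 29.9, 27.3 and 27.4 in mLN and at 21.2, 11.9 and 14.0 in PP, where every library was below every spleen and mLN library. It fell 2.03-fold in PP against spleen (-1.02 ± 0.25, adjusted p = 0.00824) and 1.81-fold against mLN (-0.86 ± 0.25, adjusted p = 0.0386). Spleen and mLN overlapped and did not differ past the threshold (-0.17 ± 0.24, adjusted p = 0.676). The PP libraries 399 and Pool, which stood apart above, were lower than PP library 392. In a fit of only the 6 libraries compared the call against spleen was just lost (adjusted p = 0.0527). Without both PP libraries 399 and Pool, which leaves library 392 alone in PP, both calls were lost. The change was then -0.61 against spleen and -0.43 against mLN. The call against spleen held when either 399 or Pool alone was left out. The call against mLN was lost without either of them, or without any 1 of the mLN libraries (adjusted p = 0.0715 to 0.143).

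Tlr6, in contrast to Tlr1 a gene of low level, was at 10.9, 7.97 and 8.53 CPM in spleen (392, 399 and Pool), at 5.23, 2.53 and 4.38 in mLN and at 6.80, 0.345 and 4.37 in PP. All spleen values lay above the others, but neither difference passed the threshold (mLN -1.15 ± 0.47, adjusted p = 0.0858; PP -1.23 ± 0.49, adjusted p = 0.0937). DESeq2 called both, at adjusted p = 0.0405 and 0.0422.

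Tlr4 was at 24.8, 30.4 and 29.7 CPM in spleen, at 15.7, 16.1 and 18.8 in mLN and at 23.0, 24.4 and 19.1 in PP (392, 399 and Pool in each). It fell 1.67-fold in mLN against spleen (-0.74 ± 0.19, adjusted p = 0.00601), and the PP libraries lay between those of both other tissues without a call against either. Cd180 was at 109, 152 and 104 CPM in spleen, 95.2, 97.1 and 56.2 in mLN and 100, 102 and 71.3 in PP, and was not called in any of these comparisons. Its pool was the lowest library of each tissue.

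Of the endosomal receptors, Tlr3 showed the largest tissue difference of the 10 genes. It was at 5.09, 14.9 and 32.0 CPM in the spleen libraries 392, 399 and Pool, at 0.789, 1.47 and 1.25 in mLN and at 1.36, 0.173 and 1.89 in PP. The spleen libraries spread widely, but the lowest of them lay above all mLN and PP libraries. The gene was 14.9-fold lower in mLN (-3.89 ± 0.68, adjusted p = 0.000221) and 14.7-fold lower in PP (-3.88 ± 0.70, adjusted p = 0.000661). Without the spleen Pool library both were called at smaller sizes, -3.11 in mLN and -3.10 in PP. Mouse B cells also hold TLR7 and TLR9, and neither gene was called between tissues. Tlr7 was at 80.8, 53.1 and 70.9 CPM in spleen, 101, 104 and 72.7 in mLN and 74.2, 100 and 59.0 in PP (392, 399 and Pool). Tlr9 was at 139, 186 and 185 CPM in spleen, 167, 152 and 115 in mLN and 156, 195 and 125 in PP. Approximate 95% intervals of the Tlr9 log2 difference against spleen ran from -0.72 to 0.28 for mLN and from -0.60 to 0.40 for PP. They were drawn from the SE with the normal distribution and are narrower than the edgeR test would give. Unc93b1 was at 1657, 1678 and 1771 CPM in spleen, 1566, 1434 and 1690 in mLN and 1432, 1137 and 1441 in PP, with no call (PP against spleen -0.35 ± 0.13, adjusted p = 0.0824; DESeq2 adjusted p = 0.0330).

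Irak3, the inhibitor, fell in both gut-associated tissues. It was at 34.9, 47.4 and 58.7 CPM in the spleen HEL pos libraries (392, 399 and Pool), at 15.6, 14.8 and 23.3 in mLN and at 24.8, 26.8 and 26.6 in PP. The 3 tissues did not overlap: spleen was highest and mLN lowest. The gene was 2.62-fold lower in mLN than in spleen (-1.39 ± 0.19, adjusted p = 1.73e-05) and 1.80-fold lower in PP (-0.85 ± 0.19, adjusted p = 0.00392). PP and mLN differed by 0.54 ± 0.20 without passing the threshold (adjusted p = 0.0905). Without the PP libraries 399 and Pool, which leaves library 392 alone in PP, the PP difference was as large (-0.95) but its call was lost. Irak3 is also known from myeloid cells, and 6 of the 11 myeloid markers tested fell in mLN and 5 of 11 in PP against spleen. Over the spleen HEL pos libraries the myeloid sum was 88.2, 229 and 90.7 CPM (392, 399 and Pool), and its part in the spleen differences of Irak3, Tlr3 and Tlr4 was not tested.

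**Figure D2:**
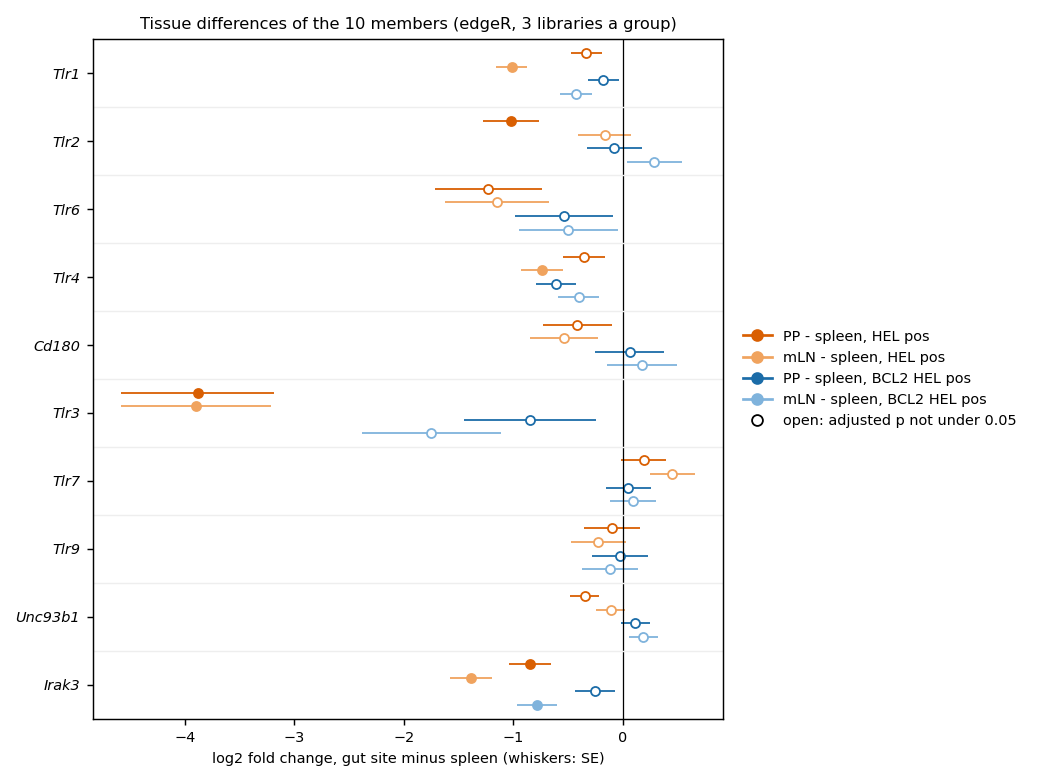
Log2 fold change of mLN or PP against spleen for each gene (points; whiskers give 1 SE; 3 libraries a group), in HEL pos cells (orange) and BCL2 HEL pos cells (blue); filled points have an edgeR adjusted p under 0.05 over all genes tested. Tlr3 lies near -3.9 in both HEL pos comparisons, and Irak3 is the 1 gene called in BCL2 HEL pos cells.

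In BCL2 HEL pos cells the same tissue comparisons gave 1 call. Irak3 was at 63.9, 64.5 and 70.8 CPM in the spleen libraries 922, 926 and 950 and at 38.8, 38.5 and 39.7 in mLN, a 1.72-fold lower level in mLN with no overlap (-0.79 ± 0.19, adjusted p = 0.00815, beside 10.0% of all genes called). The call was lost without the libraries numbered 950 of all tissues (-0.75, adjusted p = 0.103). In PP it was at 58.6, 47.2 and 63.8 CPM and was not called against spleen (-0.26 ± 0.18, adjusted p = 0.505). For PP against spleen edgeR called 0 of the 10 genes beside 7.34% of all genes. At an unadjusted p under 0.05 there was 1 of the 10, beside 2279 of all 11419 genes. That gene was Tlr4 (-0.61 ± 0.19, edgeR adjusted p = 0.0507), which DESeq2 called at an adjusted p of 0.0300. Tlr4 was at 22.6, 29.3 and 35.3 CPM in spleen (922, 926 and 950) against 20.6, 16.4 and 21.1 in PP. For PP against mLN edgeR and DESeq2 each called 0 of the 10 genes, beside 1.16% of all genes with edgeR. Irak3 was the 1 gene of the 10 with an unadjusted p under 0.05 in that comparison (edgeR adjusted p = 0.227), beside 1368 of all 11419 genes.

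Tlr3 in BCL2 HEL pos cells was at 7.50, 10.2 and 6.38 CPM in spleen (922, 926 and 950), 3.50, 2.19 and 1.54 in mLN and 4.09, 8.18 and 1.58 in PP. Spleen again lay above mLN in every library, but the difference was not called (-1.75 ± 0.63, adjusted p = 0.0885; DESeq2 adjusted p = 0.0435), and PP overlapped spleen (-0.85 ± 0.60, adjusted p = 0.501). Tlr1 was at 127, 124 and 122 CPM in spleen, 106, 79.7 and 94.9 in mLN and 137, 106 and 92.4 in PP (mLN against spleen -0.43 ± 0.14, adjusted p = 0.0626; DESeq2 adjusted p = 0.0407). The other 6 genes had no adjusted p under 0.05 in any tissue comparison of these cells.

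BCL2 HEL pos cells were next compared with HEL pos cells within each tissue. In spleen 3 of the 10 genes fell in BCL2 HEL pos cells and none rose: Tlr2, Cd180 and Unc93b1, beside 9.37% of all genes called. In mLN and in PP 1 gene rose in each, Irak3, and none fell, beside 11.7% and 10.1% of all genes. The 2 kinds of cells share no library number, so the cell kind cannot be told apart from anything else that differed between these sets of libraries. The HEL pos libraries here are those of the tissue comparisons above.

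Irak3 in mLN was at 38.8, 38.5 and 39.7 CPM in the BCL2 HEL pos libraries 922, 926 and 950, against 15.6, 14.8 and 23.3 in the HEL pos libraries 392, 399 and Pool. The groups did not overlap and the level was 2.16-fold higher (1.11 ± 0.19, adjusted p = 0.000796). In PP it was at 58.6, 47.2 and 63.8 against 24.8, 26.8 and 26.6 CPM, 2.15-fold higher (1.10 ± 0.19, adjusted p = 0.00118). In spleen the values of 63.9 to 70.8 CPM also lay above the 34.9 to 58.7 CPM of HEL pos cells, but the difference of 0.51 ± 0.18 was not called (adjusted p = 0.0876). Of the 11 gut epithelial markers 7 fell in this PP comparison, and their sums in PP are given above. The myeloid sum was 12.6 to 15.9 CPM in BCL2 HEL pos and 14.3 to 28.8 in HEL pos libraries of mLN, and 25.6 to 36.2 and 20.9 to 31.3 CPM in PP. The sum of 8 dendritic cell markers was 11.3 to 20.8 against 29.9 to 44.3 CPM in mLN, where 1 of the 6 tested fell. T and NK cell markers moved further in mLN: 7 of the 11 tested fell (median -3.03), and their sum was 18.6 to 21.6 CPM in BCL2 HEL pos against 29.5 to 90.8 CPM in HEL pos libraries. Of the 8 B cell markers 4 rose in mLN and 2 in PP, with none falling. The part of these marker differences in the Irak3 calls was not tested.

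Cd180 in spleen was at 70.5, 59.1 and 35.2 CPM in the BCL2 HEL pos libraries 922, 926 and 950, against 109, 152 and 104 in the HEL pos libraries, 2.19-fold lower (-1.13 ± 0.32, adjusted p = 0.0283). Library 950 was the lowest for Cd180 in all 3 tissues, at 35.2, 46.7 and 26.8 CPM in spleen, mLN and PP. The call was lost without the spleen library 950 (-0.92, adjusted p = 0.127), without the BCL2 HEL pos library 926 (-1.19, 0.0739) or without the HEL pos library 399 (-0.94, 0.130). In mLN and PP the groups overlapped and were not called (-0.42 ± 0.32 and -0.66 ± 0.32).

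Tlr2 in spleen was at 15.4, 19.0 and 14.3 CPM in BCL2 HEL pos cells against 37.9, 34.7 and 23.6 in HEL pos cells, 1.95-fold lower without overlap (-0.96 ± 0.25, adjusted p = 0.0184). Leaving out the HEL pos library 392 or 399, or the BCL2 HEL pos library 922 or 950, ended this call (adjusted p = 0.0695 to 0.0744). Unc93b1 was at 1258, 1017 and 1171 against 1657, 1678 and 1771 CPM, 1.47-fold lower without overlap (-0.55 ± 0.13, adjusted p = 0.0106), and was not called without library 926 (-0.47, adjusted p = 0.0793). Of the 11 myeloid markers tested 4 fell in the same comparison, and the myeloid sum was 8.90 to 35.04 CPM in BCL2 HEL pos against 88.2 to 229 CPM in HEL pos spleen libraries; its part in these 3 differences was not tested. Tlr9 followed the direction of Cd180 in each tissue, with values of -0.57 ± 0.26, -0.47 ± 0.26 and -0.50 ± 0.26 in spleen, mLN and PP, none of them called (adjusted p = 0.174, 0.265 and 0.219). Without the filter on low counts edgeR called Tlr9 in each tissue (adjusted p = 0.00707, 0.0466 and 0.0434). With only the 6 libraries compared it was called in spleen (edgeR adjusted p = 0.0251). No other alternative called it.

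Tlr6 was at 11.9, 7.42 and 9.26 CPM in the mLN BCL2 HEL pos libraries and at 10.1, 9.95 and 7.98 in PP. These lay above every HEL pos library of the same tissue, with differences of 1.20 ± 0.47 (adjusted p = 0.110) and 1.25 ± 0.48 (adjusted p = 0.103) that were not called. Tlr3 differed by -1.11 ± 0.58 in spleen, 1.04 ± 0.71 in mLN and 1.93 ± 0.70 in PP, again without a call. Tlr7 differed by 0.06 ± 0.21 in spleen, -0.30 ± 0.20 in mLN and -0.09 ± 0.21 in PP, the values of both kinds of cells overlapping in each tissue.

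Whether the tissue difference itself changed with BCL2 was tested as an interaction. For PP against spleen 0 of the 10 genes were called, beside 0.00876% of all genes (1 gene), and for mLN against spleen 0 of 10, beside 0.385%. At an unadjusted p under 0.05 there were 4 in the first (Tlr2, Tlr3, Unc93b1 and Irak3), beside 1083 of all 11419 genes. In the second there were 3 (Tlr1, Tlr3 and Irak3), beside 1066 of all 11419 genes. DESeq2 called none of the 10 in either. The estimates were widest for Tlr3, at 3.03 ± 0.91 for PP (adjusted p = 0.317) and 2.15 ± 0.92 for mLN (adjusted p = 0.460). Without the filter on low counts the adjusted p of Tlr3 for PP was 0.00117. For Irak3 the interactions were 0.59 ± 0.26 and 0.60 ± 0.27 (adjusted p = 0.482 and 0.476), and neither was called.

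**Figure D3:**
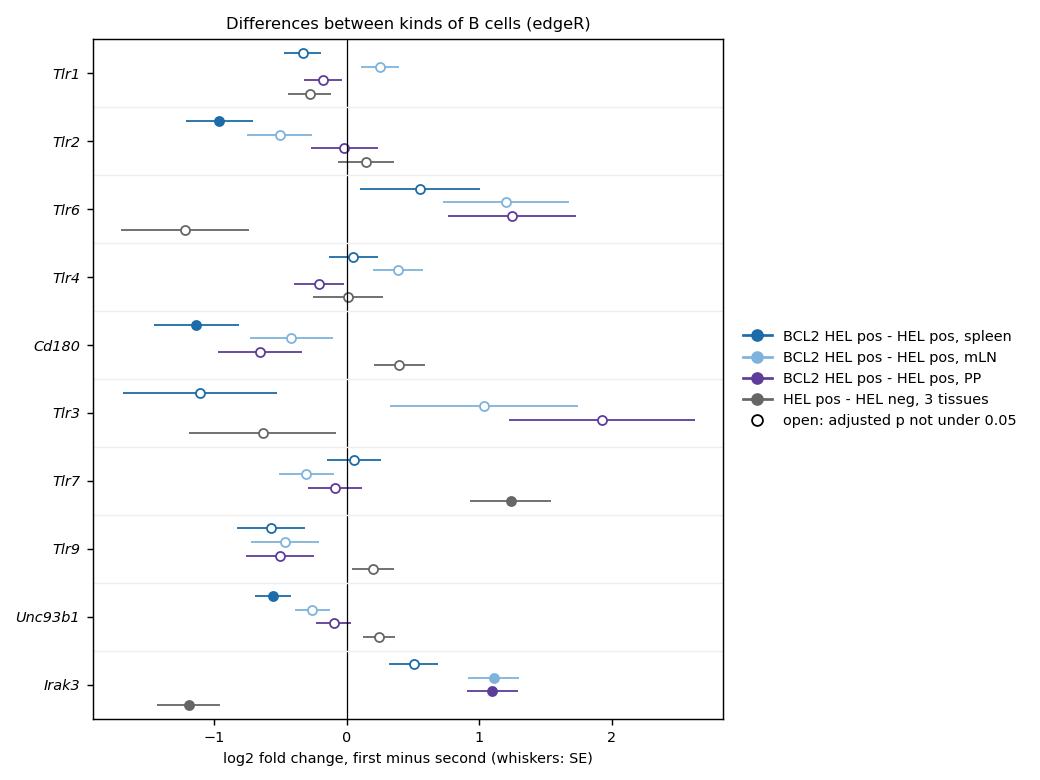
Log2 fold change (points; whiskers give 1 SE) of BCL2 HEL pos against HEL pos cells in each tissue, and of HEL pos against HEL neg cells over 3 tissues in grey; filled points have an edgeR adjusted p under 0.05. Irak3 is called higher in mLN and PP BCL2 HEL pos cells and lower in HEL pos than HEL neg cells.

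HEL pos cells were compared with HEL neg cells over the 3 tissues, with 9 against 3 libraries and tissue as a covariate. The HEL pos libraries repeat 392, 399 and Pool in each tissue, and the fit took all libraries as independent. No fit with a block for the library number was run for this comparison, so its p-values may overstate the replication. Tlr7 rose, Irak3 fell, and the other 8 genes were not called, beside 8.68% of the 11406 genes tested. Tlr7 was at 49.7, 43.7 and 12.0 CPM in the HEL neg pools of spleen, mLN and PP, below every HEL pos library of any tissue (53.1 to 104 CPM). It was 2.36-fold higher in HEL pos cells (1.24 ± 0.31, adjusted p = 0.0218). Tlr7 is X-linked, and the HEL neg pools held Y-linked transcripts while the HEL pos libraries 392 and 399 did not. The part of that difference between libraries was not tested. All HEL neg and HEL pos pools held Y-linked transcripts and also the X-linked RNA Xist, at 79.3 to 387 CPM of the plain total. They are therefore not shown to match in sex. With the 3 HEL neg and 3 HEL pos pools alone, the Tlr7 difference was 1.14 and not called (adjusted p = 0.148). Without the PP HEL neg pool it was 0.77 (adjusted p = 0.131), and without the mLN HEL neg pool 1.31 (adjusted p = 0.110).

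Irak3 was at 58.4, 71.4 and 55.2 CPM in the HEL neg pools of spleen, mLN and PP. The spleen HEL neg pool lay close to the spleen HEL pos pool at 58.7 CPM, while the mLN and PP HEL neg pools were above every HEL pos library of their tissue (14.8 to 23.3 and 24.8 to 26.8 CPM). Over the tissues it was 2.28-fold lower in HEL pos cells (-1.19 ± 0.24, adjusted p = 0.00730). The call was lost without the mLN HEL neg pool (-0.72, adjusted p = 0.152) or the PP HEL neg pool (-1.24, adjusted p = 0.0584), and with the 6 pools alone (-0.86, adjusted p = 0.224). With 1 HEL neg library a tissue the difference could not be tested by tissue. The dendritic marker sum was 34.0 to 65.8 CPM in HEL neg pools against 11.1 to 44.3 in HEL pos libraries, and its part was not tested. Tlr6 showed a like order, at 10.5, 11.3 and 13.6 CPM in the HEL neg pools, with a difference of -1.22 ± 0.48 that was not called (adjusted p = 0.129).

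The order of the 9 groups differed from gene to gene. Mean Irak3 ran from 71.4 CPM in the mLN HEL neg pool and 66.4 ± 3.83 (SD, n = 3) in spleen BCL2 HEL pos cells down to 26.1 ± 1.11 in PP and 17.9 ± 4.70 in mLN HEL pos cells. Tlr1 ran from 158 ± 9.80 in spleen HEL pos cells to 77.5 ± 7.18 in mLN HEL pos cells. Cd180 ran from 122 ± 26.1 CPM in spleen HEL pos cells to 53.5 CPM in the PP HEL neg pool and 54.9 ± 18.0 in spleen BCL2 HEL pos cells. Among the 45 pairs of the 10 genes, the Pearson r of log2 CPM over the 21 libraries had a median of 0.13, and 7 pairs exceeded 0.5. The highest was between Tlr9 and Cd180 at 0.85, followed by Tlr2 and Unc93b1 at 0.69 and Tlr6 and Irak3 at 0.64, and the lowest was between Tlr7 and Irak3 at -0.43. The libraries share groups and depth, so these values are descriptions and carry no test.

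Among 8358 other genes with a mean log2 CPM of at least 3, the pattern most like that of Irak3 over the 21 libraries was Traf5 (r = 0.98), followed by Trim7 and BC013712 (0.95 for both). Traf5 encodes an adaptor of TNF receptor family members. It ran from 23.5 to 27.8 CPM in mLN HEL pos libraries and from 85.6 to 101 CPM in spleen BCL2 HEL pos libraries. The pattern most like that of Tlr1 was Cd40 (r = 0.97), the receptor for T cell help, then Ifi30 (0.91) and Ltb (0.90). Cd40 ran from 100 to 117 CPM in mLN and from 247 to 283 CPM in spleen HEL pos libraries. For Tlr6 the first was Fbxo21 (0.94), for Tlr7 Ddx52 (0.89), for Tlr3 Gbp7 (0.87), for Unc93b1 Ripk3 (0.85), for Tlr2 2010321M09Rik (0.85), for Tlr4 Zfp101 (0.84), and for Tlr9 and Cd180 Trim30d and Cluap1 (0.82 for both). Ifitm3 was the second gene for Tlr7 (0.86).

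**Figure D4:**
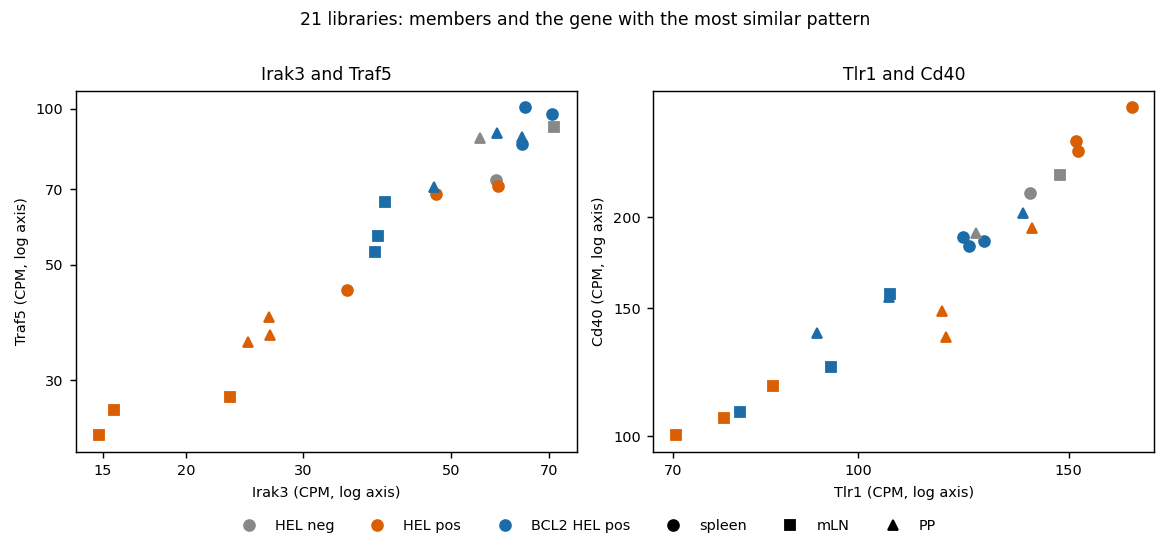
Irak3 against Traf5 and Tlr1 against Cd40 in 21 libraries (CPM, both axes logarithmic; colour gives the kind of cell and shape the tissue). The mLN HEL pos libraries hold the lowest Irak3 and Traf5 values, and the 3 spleen HEL pos libraries the highest Tlr1 and Cd40 values.

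Other genes of the pathway were read from 5 fixed lists. Of 10 other receptors and co-receptors 4 were tested, and in HEL pos cells all 4 fell in mLN against spleen: Ly96 (MD-2, the partner of TLR4; -1.39 ± 0.24, adjusted p = 0.000177), Cd36 (a scavenger receptor that can assist TLR2 with TLR6; -1.07 ± 0.22, adjusted p = 0.00107), Tlr12 (-1.87 ± 0.53, adjusted p = 0.0118) and Ly86 (MD-1, the partner of CD180; -0.49 ± 0.15, adjusted p = 0.0213). Ly96 and Cd36 also fell in PP against spleen (-1.45 ± 0.24 and -1.08 ± 0.22). The median of the 4 genes was -1.23 in mLN, against -0.01 over all genes, of which 24.5% were called in mLN and 15.4% in PP. In BCL2 HEL pos against HEL pos cells Cd36 fell in spleen (-2.73 ± 0.24), mLN (-1.24 ± 0.23) and PP (-2.49 ± 0.24), and its mean level went from 480 to 71.6 CPM in spleen. Ly96 fell in spleen (-1.37 ± 0.24) and Tlr12 in spleen and PP. Cd36 and Ly96 are also expressed by myeloid cells, and the myeloid sum moved in the same direction in spleen, as given above. With BCL2 it was 12.6 to 15.9 against 14.3 to 28.8 CPM in HEL pos libraries of mLN, and 25.6 to 36.2 against 20.9 to 31.3 CPM in PP. In these tissues 0 of the 11 myeloid markers tested were called. The part of the myeloid sum was not tested.

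All 13 genes for folding, trafficking and cleavage of TLRs were tested. In mLN against spleen HEL pos cells 3 rose and 1 fell: Ctsb, a lysosomal protease, rose by 1.07 ± 0.17, Hsp90b1 (gp96, the folding chaperone of most TLRs) by 0.94 ± 0.21 and Lrrc59 by 0.47 ± 0.17, while Slc15a4, a lysosomal transporter required for TLR7 and TLR9 responses, was at -0.75 ± 0.19. That is 30.8% of the list called, beside 24.5% of all genes. In PP against spleen 3 fell and none rose: Slc15a4 (-0.69 ± 0.19), Ctss (-0.40 ± 0.12) and Ap3b1 (-0.36 ± 0.12), or 23.1% beside 15.4% of all genes. With BCL2 in mLN 3 fell (Hsp90b1 -1.08 ± 0.21, Ctsb -0.76 ± 0.17, Lrrc59 -0.67 ± 0.17) and Lgmn rose (0.73 ± 0.21), or 30.8% beside 11.7% of all genes.

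All 23 adaptors, kinases and transcription factors were tested. In mLN against spleen HEL pos cells 3 rose and 6 fell, 39.1% of the list beside 24.5% of all genes, led by Ticam2 (TRAM, the adaptor that links TLR4 to TRIF; 2.20 ± 0.27, adjusted p = 4.84e-06), Pik3ap1 (BCAP, an adaptor of PI3 kinase; 0.73 ± 0.12), Tab2 (-0.73 ± 0.16) and Traf3 (-0.73 ± 0.17). Ticam2 was at 6.79 to 18.2 CPM in spleen and 51.0 to 69.2 CPM in mLN HEL pos libraries, and rose in PP as well (1.41 ± 0.27), where Pik3ap1 was the other call of 2 (0.38 ± 0.12), or 8.70% of the list beside 15.4% of all genes. In BCL2 HEL pos cells Irf7, a transcription factor of type I interferon genes, fell in mLN (-1.77 ± 0.26) and PP (-0.99 ± 0.25) against spleen. With BCL2, 2 genes of this list rose in all 3 tissues: Irak2, a kinase of the same family as Irak3 that promotes signalling (0.67 ± 0.13 in spleen, 0.68 ± 0.13 in mLN, 0.54 ± 0.13 in PP), and Peli1, a ubiquitin ligase that acts on IRAK proteins (0.66 ± 0.19, 0.84 ± 0.19 and 0.86 ± 0.19). The whole list had 3, 4 and 4 of 23 called in these tissues (13.0%, 17.4% and 17.4%), beside 9.37%, 11.7% and 10.1% of all genes. Irak2, like Irak3, fell in HEL pos against HEL neg cells (-0.53 ± 0.15, adjusted p = 0.0447).

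Of 19 negative regulators 17 were tested in the fit of 18 libraries and at most 3 were called in a comparison (at most 17.6%, for BCL2 in PP, beside 10.1% of all genes). Tnip2 rose in mLN (1.23 ± 0.25) and PP (1.27 ± 0.25) against spleen HEL pos cells, and Sarm1 fell in mLN (-3.29 ± 0.99). With BCL2, Dok3 and Trafd1 rose in spleen (0.68 ± 0.14 and 0.51 ± 0.14) and PP (0.57 ± 0.14 and 0.50 ± 0.14) and Inpp5d (SHIP1) rose in PP (0.39 ± 0.12). The median of this list was between -0.32 and 0.21 in the 9 comparisons of that fit between 2 groups. Of 14 genes known to rise after TLR stimulation of B cells 10 were tested, and 4 rose in PP against spleen HEL pos cells with none falling (40.0%, beside 15.4% of all genes): Nfkbiz (0.99 ± 0.15), Icam1 (0.66 ± 0.14), Nfkbie (0.67 ± 0.15) and Socs3 (1.50 ± 0.42). These genes also respond to signals other than TLRs. In mLN 3 rose (Nfkbie 1.20 ± 0.15, Nfkbiz 0.78 ± 0.15, Icam1 0.54 ± 0.14) and 2 fell, among them Slamf1 (-1.30 ± 0.25), beside 24.5% of all genes. Socs3, a feedback inhibitor of cytokine signalling, rose with BCL2 in spleen (1.91 ± 0.42), mLN (1.84 ± 0.42) and PP (1.47 ± 0.39), where it was the 1 gene of the list called. In spleen 2 others fell and in mLN 1 fell, and the medians of the list were -0.44, -0.20 and -0.27 in spleen, mLN and PP, beside 9.37%, 11.7% and 10.1% of all genes called. In HEL pos against HEL neg cells 2 of the 11 tested rose and 4 fell (54.5%, beside 8.68% of all genes), with a median of -0.03. Slamf1 (-1.67 ± 0.31) and Socs3 (-1.61 ± 0.36) were among those that fell in that comparison, and Nfkbiz was among those that rose (0.84 ± 0.18).

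**Figure D5:**
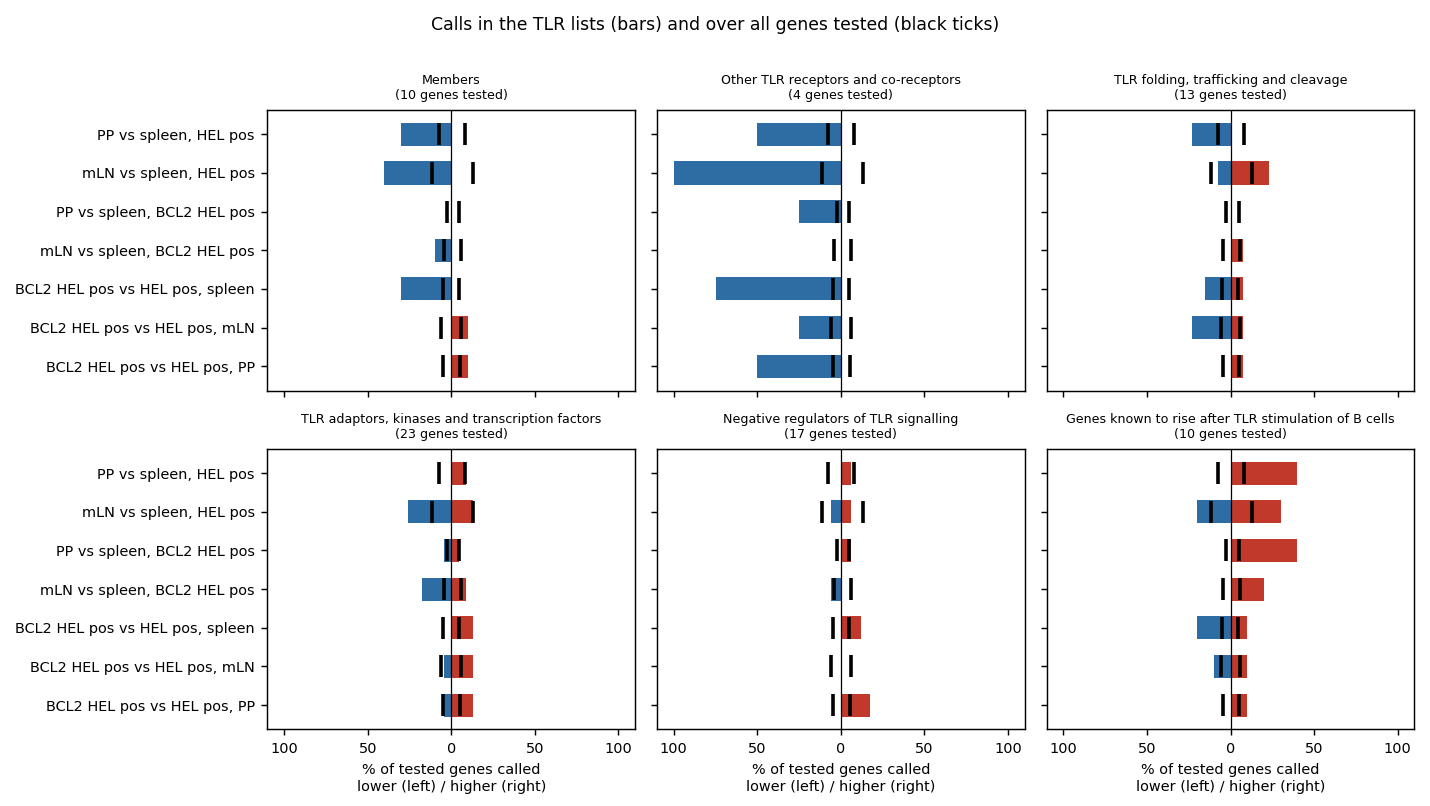
Percent of tested genes called higher (red, right) or lower (blue, left) in the 10 genes of the set and the 5 pathway lists for 7 comparisons (edgeR adjusted p under 0.05); black ticks give the percent over all genes tested. All 4 tested co-receptor genes were called lower in mLN against spleen HEL pos cells, and no gene of the set was called higher in a tissue comparison with spleen.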

How the data were processed

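RNA of sorted B cells was sequenced in 21 libraries as single-end reads of 50 bases, per the labels. The deposited values are whole-number counts for each gene symbol. The submitters' processing notes name STAR, HTSeq, DESeq2 and mm10; the role of each, its version and its settings were not given in the sources used here. Columns were matched to libraries by name. Of 23337 symbols, 20929 were found in GENCODE M21, which gave coordinates and exon lengths.

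After filterByExpr and TMM scaling, groups were compared with the two-sided quasi-likelihood test of edgeR 4.0.16 (R 4.3.3, limma 3.58.1). A gene was called where its Benjamini-Hochberg adjusted p over all genes tested was under 0.05. The 9 comparisons and both interactions among HEL pos and BCL2 HEL pos cells came from 1 fit of 18 libraries (11419 genes; 12 residual degrees of freedom; coefficient of biological variation 0.207). A separate fit of 12 libraries, with tissue as covariate, compared HEL pos with HEL neg cells (11406 genes). A standard error is the absolute log2 fold change over the square root of F. Levels are CPM over TMM-scaled totals of 21 libraries, with Xist and the sums of olfactory and Y-linked transcripts on plain totals. The test was checked on simulated data.

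The 10 genes and the lists were chosen with earlier results of these data known. All 10 genes are named. From each list at most 4 called genes in a comparison were eligible to be named, by smallest p, and some of these are left out for length. For each of the 10 genes the 3 others with the highest r over 21 libraries were found. Motifs and the promoters printed were picked after values were seen. The alternatives tried were DESeq2 1.42.0; edgeR with DESeq2 size factors; no filter on low counts; a fit of only the libraries compared; each library left out; a block for the library number; HEL pos cells without their pools; and PP HEL pos cells without 399 and Pool. The block was fitted only for the tissue comparisons within a kind of cell and for the interactions. Chosen after seeing the data were fits of the 6 pooled libraries alone and without the BCL2 HEL pos libraries numbered 950.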

Additional observations from a re-analysis of the deposited data

How the results depend on the processing

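Over 120 results (10 genes in 12 comparisons) and 1709 recomputed values, no call changed sign. Of 17 calls 8 held under every alternative: Tlr3 in PP against spleen, Tlr1, Tlr3, Tlr4 and Irak3 in mLN against spleen and Tlr1 in PP against mLN, all in HEL pos cells, and Irak3 with BCL2 in mLN and PP. The other 9 were lost under at least 1, and 20 uncalled results were called under at least 1.

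The number of the 10 genes called moved by over 1.5 times as follows, and smaller moves, of 1 or 2 genes, are not listed. With DESeq2 it was 5 for PP against spleen in HEL pos cells, 1 for PP and 3 for mLN against spleen in BCL2 HEL pos cells, and 2 for BCL2 in PP. With no low-count filter it was 2 for mLN against spleen in BCL2 HEL pos cells, 3 and 5 for BCL2 in mLN and PP, and 1 for the PP interaction. With only the 6 libraries compared it was 1 for PP against mLN in HEL pos cells, 3 for mLN against spleen in BCL2 HEL pos cells and 3 for BCL2 in mLN. Without libraries 399 and Pool of PP HEL pos cells it was 1 for PP against spleen and 1 for PP against mLN in HEL pos cells, and 1 for PP against spleen in BCL2 HEL pos cells. With the pooled libraries alone it was 0 for HEL pos against HEL neg cells, and without the libraries numbered 950 it was 0 for mLN against spleen in BCL2 HEL pos cells. Leaving out 1 library at a time gave 1 to 2 for PP against mLN in HEL pos cells, 0 to 1 for PP against spleen in BCL2 HEL pos cells, 1 to 4 and 1 to 2 for BCL2 in spleen and PP, and 0 to 2 for HEL pos against HEL neg cells. The causes were not tested, except that leaving out libraries lowers their number.

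With the library number as a replicate block, 5 of the 10 genes were called for PP against spleen, 6 for mLN against spleen and 3 for PP against mLN in HEL pos cells, and 1 and 3 for PP and mLN against spleen in BCL2 HEL pos cells. Among the added calls were Cd180 in mLN against spleen (-0.56, adjusted p = 0.00885) and Irak3 in PP against mLN (0.56, adjusted p = 0.0275), both in HEL pos cells. The block raised the calls over all genes for PP against mLN in BCL2 HEL pos cells from 132 to 480. Deviations from the group mean correlated above 0.1 in 7 of 9 same-numbered pairs of HEL pos and 6 of 9 of BCL2 HEL pos libraries and not in every pair, the condition set for pairing, so the libraries were not treated as paired. As a hint from the data, 8 of 9 and 9 of 9 libraries correlated best with their own number.

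Over all genes, counts of calls ranged under the alternatives other than single libraries left out from 640 to 2385 for PP and 2301 to 3448 for mLN against spleen and 209 to 1634 for PP against mLN in HEL pos cells. In BCL2 HEL pos cells they ranged from 245 to 1388, 536 to 1946 and 21 to 480. For BCL2 they ranged from 563 to 1480 in spleen, 696 to 2105 in mLN and 255 to 1625 in PP, for the interactions from 0 to 114 (PP) and 1 to 192 (mLN), and between HEL pos and HEL neg cells from 73 to 1551. With single libraries left out the ranges, in the same order, were 1307 to 2135, 2023 to 2528 and 374 to 1512, then 473 to 866, 561 to 862 and 25 to 98, then 569 to 911, 654 to 1192 and 638 to 1638, then 1 to 23 and 2 to 39, and 176 to 1574. Depth limits Tlr3 and Tlr6 most, whose lowest libraries hold 1 and 2 counts.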
